A study of Arabidopsis thaliana and Zea mays with 822 samples.

Results

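The plants described here are 97 T1 Arabidopsis thaliana plants that carried nCasΦ (nCasphi in the labels), a variant of the compact CRISPR nuclease CasΦ-2 with alanine substitutions in a helix, and a guide RNA against the gene AtPDS3. They were chosen by construct alone. In 54 of them the ribozyme-flanked guide RNA10 (gR10) was transcribed from the CmYLCV promoter (CmYLCVp::ribozyme-gR10), and in 43 from the UBQ10 promoter (pUB10::ribozyme-gR10). They are 97 of the 822 samples of the series, and each was sequenced as 1 amplicon library. All 97 were in the Columbia-0 strain with the rdr6-15 background, carry nCasΦ driven by the UBQ10 promoter, were selected on hygromycin B and were sampled as leaf tissue at 3 to 4 weeks. The rdr6-15 mutation affects RDR6, an RNA-dependent RNA polymerase that takes part in transgene silencing. The 3 untransformed control plants were wild type Columbia-0 of the same age and tissue, so the controls differ from the edited plants in background as well as in the transgene. Each T1 plant is a transformation event of its own, and its leaf is a mixture of edited and unedited cells. The guide cassettes ended in the 35S terminator with CmYLCVp and in the rbcS-E9 terminator with pUB10. The study's primer list also names an insulator sequence (TBS) with the UBQ10 guide promoter and none with CmYLCVp. Promoter, terminator and insulator therefore cannot be told apart. The question was whether the promoter that drives the guide changes how much, and in which patterns, AtPDS3 is edited.

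AtPDS3 encodes phytoene desaturase, an enzyme of carotenoid synthesis, and plants without it turn white because chlorophyll is not protected from light. CasΦ nucleases recognise a short T-rich motif (PAM) in front of the guide's target and cut far from it, with the cuts on both strands offset from each other. Repair of such staggered ends mostly leaves deletions of several base pairs. A deletion whose length is a multiple of 3 keeps the reading frame, and one that removes the first bases of an intron or the last ones can disturb splicing. CmYLCV (cestrum yellow leaf curling virus) and UBQ10 promoters are both transcribed by RNA polymerase II, which adds a cap and a tail, and self-cleaving ribozymes on both sides of the guide release it from that transcript.

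The gR10 target lies on the plus strand of chromosome 4 at chr4:8194265-8194284 in TAIR10.1, in an exon of AT4G14210 (PDS3, gene chr4:8190190-8195320, minus strand). That exon spans chr4:8194197-8194285 and the target ends 1 bp before its plus-strand end, which is the splice acceptor side of the exon because the gene is on the minus strand. The PAM covers chr4:8194262-8194264. The sequences below are RefSeq's TAIR10.1 plus strand over chr4:8194255-8194300, shown because the deletions listed here fall in it. In the first the capitals mark the target, and in the others they mark the bases that a deletion removes. A deletion is named by the position at which it starts and its length: position 1 is the base at 8194283, there is no position 0, and 9D stands for 9 deleted bp.

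gR10 target: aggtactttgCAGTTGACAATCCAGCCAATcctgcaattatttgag
-5:9D: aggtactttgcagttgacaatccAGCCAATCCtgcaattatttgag
-4:8D: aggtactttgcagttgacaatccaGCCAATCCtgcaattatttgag
-1:5D: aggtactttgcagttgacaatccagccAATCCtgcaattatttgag
-4:4D: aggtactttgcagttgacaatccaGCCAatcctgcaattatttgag
-4:7D: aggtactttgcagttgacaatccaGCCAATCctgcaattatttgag
-16:24D: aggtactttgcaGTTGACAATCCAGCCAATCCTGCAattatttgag
-7:17D: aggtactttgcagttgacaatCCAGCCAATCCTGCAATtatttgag

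A direct repeat of 6 bp, CAATCC, lies at chr4:8194272-8194277 and chr4:8194281-8194286, and the 9-bp deletion -5:9D removes a copy of it and the bases between the copies. Removing chr4:8194278-8194286, as the label places it, and removing chr4:8194272-8194280, wholly inside the exon, leave the same product, so -5:9D is an in-frame deletion inside the exon. Counting a deletion once for each plant that held it, the 97 plants had 11123 single deletions. All of them were labelled at the rightmost of their equivalent positions, and 4728 of them could be moved to the left. A deletion was therefore said to cross the exon end only if every equivalent placement did. By that reading -4:8D, -7:17D and the 24-bp, in-frame -16:24D cross it, and -5:9D, -1:5D, -4:4D and -4:7D do not.

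Each library held 1000799 to 2638080 reads in the CmYLCVp plants, 1397933 to 3269001 in the pUB10 plants and 2290389 to 3017722 in the controls. A pattern was counted as edited if it held a deletion or insertion of 3 bp or longer and had 100 or more reads in the library, and efficiency is the share of a library's reads in such patterns, in percent. The minimum of 100 reads corresponds to between 0.00306% and 0.00999% of a library. The median depth was 1834761 reads in the CmYLCVp plants and 2086967 in the pUB10 plants, and depth and efficiency were not related within either promoter by a permutation test (Pearson's r = -0.22 and Spearman's rho = -0.22 over 54 CmYLCVp plants, adjusted p = 0.164 for both; r = 0.11 and rho = 0.11 over 43 pUB10 plants, adjusted p = 0.641 and 0.662). Without the 2 plants farthest from the median depth r was -0.15 and 0.07. Among the libraries of 1500000 to 2200000 reads the median efficiency was 8.72% with CmYLCVp (n = 43) and 41.4% with pUB10 (n = 22).

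Editing was higher in the pUB10 plants. Efficiency in the CmYLCVp plants ran from 0.123% (plant 41) through a median of 9.01% to 82.3% (plant 15), with quartiles at 1.55% and 41.6%. In the pUB10 plants it ran from 0.0628% (plant 33) through a median of 35.9% to 70.6% (plant 1), with quartiles at 17.9% and 47.7%. The ranges overlapped almost completely, and the highest single plant was a CmYLCVp plant, but few pUB10 plants were poorly edited. More than 10% of reads were edited in 39 of 43 pUB10 plants and in 26 of 54 CmYLCVp plants, and fewer than 1% in 3 of 43 and in 10 of 54. Above 40% the groups held 18 of 43 and 15 of 54 plants, and above 50% 10 and 9. The medians differed by -26.9 percentage points (CmYLCVp minus pUB10), and a pUB10 plant had the higher efficiency of a random pair with a probability of 0.689 (two-sided permutation test of the rank sum with 100000 resamples, p = 0.00116, Benjamini-Hochberg adjusted over 8 measures p = 0.00309). The means were 20.5% ± 23.3 (SD, n = 54) and 34.5% ± 20.3 (SD, n = 43).

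**Figure D1:**
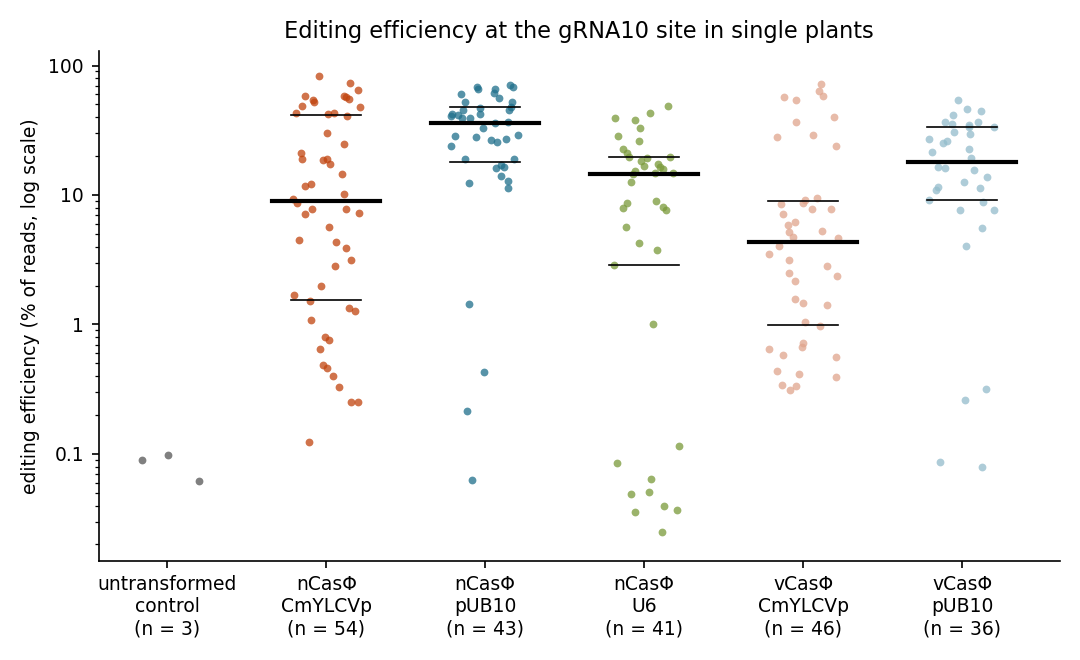
Editing efficiency of single plants as a percentage of all reads, on a log axis, for the untransformed controls, the nCasΦ plants with the guide under CmYLCVp, pUB10 or U6, and the vCasΦ plants with CmYLCVp or pUB10. Points are plants, thick lines medians and thin lines quartiles. The CmYLCVp plants spread from 0.123% to 82.3%, and 39 of 43 pUB10 plants lie above 10%.

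The 3 highest CmYLCVp plants were plant 15 with 82.3% (95% Wilson interval 82.2% to 82.3%), plant 42 with 73.1% and plant 1 with 64.9%. Among the pUB10 plants the highest were plant 1 with 70.6% (95% Wilson interval 70.5% to 70.6%), plant 16 with 68.4% and plant 42 with 67.8%. These intervals cover counting error only, since the reads come from successive rounds of PCR and are not independent molecules. All 6 plants were led by the same pattern, -5:9D, at 18.7% to 22.7% of their edited reads.

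The controls were not free of counted patterns. They held 0.0623%, 0.0897% and 0.0988% edited reads in 8, 10 and 11 patterns, each at the low end of what the transgenic plants showed. The controls' leading pattern was also -5:9D, with 425, 655 and 807 reads, and it made up 27.1% to 29.8% of their edited reads. Of the other patterns in the controls -1:5D, -4:4D, -4:5D, -4:8D, -5:8D, -2:9D and -16:24D were counted in all 3, -4:7D and -6:10D in 2 and -2:6D in 1. Where these reads come from was not tested. All 54 CmYLCVp plants and 42 of 43 pUB10 plants lay above the highest control (Fisher's exact test, two-sided, p = 0.443), and the exception was pUB10 plant 33, at 0.0628% (95% Wilson interval 0.0597% to 0.0661%) against 0.0623% (0.0592% to 0.0656%) in the lowest control. Subtracting each pattern's highest control share left the medians at 8.88% and 35.8%.

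Over the 97 plants 789 patterns were counted, 537 of them single deletions. Insertions occurred in 84 patterns and 244 combined several changes. Only 7 patterns were counted in all 97 plants and 12 in at least 90, while 342 were counted in 1 plant only. The CmYLCVp plants held 511 patterns and the pUB10 plants 657, of which 379 occurred with both promoters, or 74.2% of the former and 57.7% of the latter.

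A pUB10 plant held more patterns than a CmYLCVp plant. The number of counted patterns ran from 10 through a median of 44.5 to 259 in the CmYLCVp plants and from 8 through 157 to 280 in the pUB10 plants, and at least 100 patterns were found in 20 of 54 and 37 of 43. This difference passed the test (difference of medians -112.5, adjusted p = 0.0004, probability of 0.742 that the pUB10 plant was the higher). The number of patterns rose with the logarithm of efficiency in both groups (CmYLCVp r = 0.79 and rho = 0.82, n = 54; pUB10 r = 0.85 and rho = 0.92, n = 43; permutation test, adjusted p = 4e-05 for each, over 8 relations), also without the 2 plants farthest from the median efficiency (r = 0.79 and 0.85). A pattern needs 100 reads to be counted, so that a plant with few edited reads cannot show rare patterns. With a minimum of 10 reads the medians were 90 and 315 (difference -225, adjusted p = 0.00293). Drawing 1000 edited reads from each plant gave an expected 44.1 patterns with CmYLCVp and 90.8 with pUB10 (medians, adjusted p = 0.0007), still out of the patterns that had passed the minimum. Among the 33 CmYLCVp and 39 pUB10 plants with at least 100000 edited reads the medians were 135 and 167, and the difference no longer passed (adjusted p = 0.0568).

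The effective number of patterns is the number of equally frequent patterns that would give the same Shannon diversity. It ran from 1.34 through a median of 18.4 to 46.1 in the CmYLCVp plants and from 5.53 through 29.4 to 36.3 in the pUB10 plants (difference of medians -10.9, adjusted p = 0.0008). The lower quartile stood at 6.81 with CmYLCVp and at 27.4 with pUB10, while the upper quartiles were 29.5 and 31.5. The distributions thus lay close together at the top and apart at the bottom. With a minimum of 10 reads per pattern the medians were 25.8 and 31.5 (difference -5.63, adjusted p = 0.00293). With at least 100000 edited reads the medians were 28.5 and 29.6 (adjusted p = 0.156).

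Evenness, which is Shannon diversity over its highest possible value for that number of patterns, had medians of 0.673 and 0.662 and did not pass the test (adjusted p = 0.654). Its spread was wide with CmYLCVp, from 0.0825 to 0.928, and narrower with pUB10, from 0.386 to 0.938. The controls, with few patterns each, lay at 0.93 to 0.948. The highest values in both groups belonged to plants with few counted patterns, such as CmYLCVp plant 41 (10 patterns) and pUB10 plant 33 (8 patterns).

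Most plants were led by the same pattern, and those that were not were nearly all CmYLCVp plants. Pattern -5:9D led in 42 of 43 pUB10 plants, and in the remaining one, plant 6, -16:24D led with 22.2% of edited reads. Among the CmYLCVp plants -5:9D led in 36 of 54, and the other 18 were led by 12 different patterns. The leading pattern held 17.7% to 95.8% of the edited reads with CmYLCVp (median 22.1%, quartiles 21.0% and 46.7%) and 18.5% to 68.5% with pUB10 (median 21.1%, quartiles 20.5% and 22.3%). The difference of medians was 0.97 percentage points, and a CmYLCVp plant had the larger leading share of a random pair with a probability of 0.669 (adjusted p = 0.00752). The means, 37.0% ± 25.6 (SD, n = 54) and 23.4% ± 8.73 (SD, n = 43), lay further apart than the medians. Within the pUB10 plants the leading share was lower in plants with a higher logarithm of efficiency (r = -0.51, adjusted p = 0.0215, and rho = -0.53, adjusted p = 0.00072, permutation test, n = 43), with r = -0.33 when the 2 plants farthest from the median efficiency were left out. Over the 54 CmYLCVp plants r was -0.05 (adjusted p = 0.772) and rho was -0.31 (adjusted p = 0.0427), and r was -0.08 without the 2 farthest plants, so that a relation was found by rank only. The comparison of the promoters did not pass at a minimum of 10 reads per pattern (adjusted p = 0.0924) or among plants with at least 100000 edited reads (adjusted p = 0.0568).

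**Figure D2:**
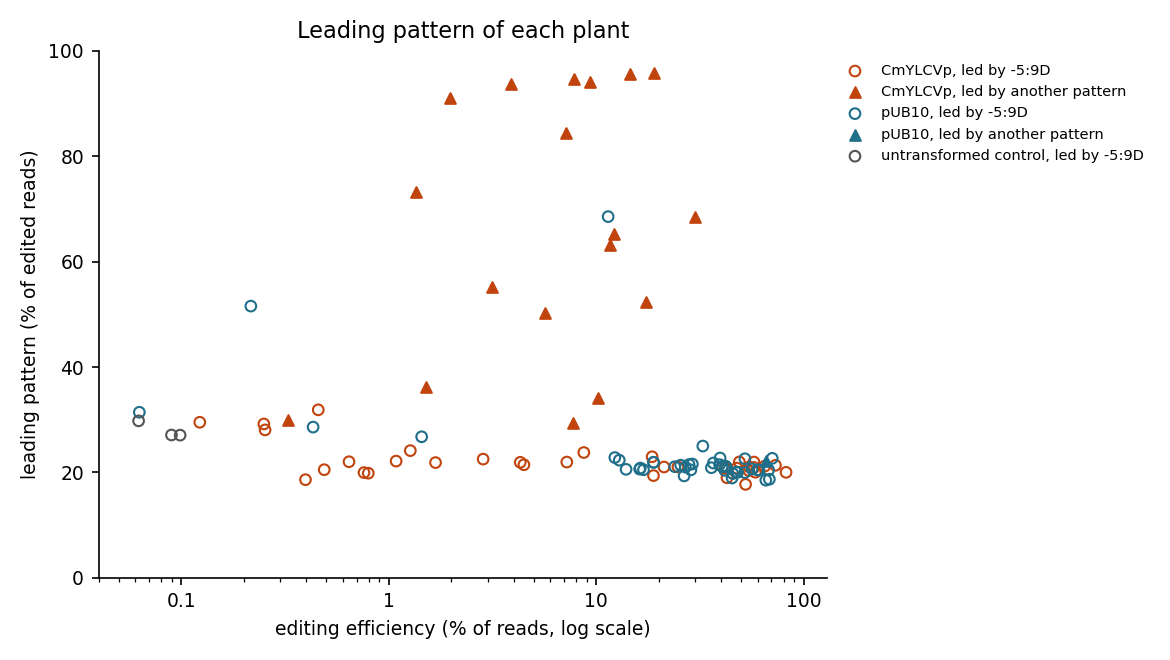
Share of the edited reads held by the leading pattern of each plant, against editing efficiency on a log axis. Open circles are plants led by -5:9D and triangles plants led by another pattern. The 18 CmYLCVp triangles reach 95.8%, at efficiencies between 0.328% and 29.8%, and most circles of both promoters lie near 20%.

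A leading pattern of more than 50% of the edited reads was found in 14 of 54 CmYLCVp plants and 2 of 43 pUB10 plants, and of more than 90% in 6 and 0. In CmYLCVp plant 44 -16:24D made up 95.8% of the edited reads at an efficiency of 19.1%, and in plant 7 the same pattern made up 94.0% at 9.30%. Plant 23 had 95.6% of -7:17D at 14.6%, and plant 12 had 94.6% of -1:5D at 7.78%. Plants 31 and 3 had 93.6% of -4:4D at 3.89% and 91.1% of -4:5D at 1.99%. Each of these 6 plants thus carried nearly all of its edited reads as 1 deletion, with 5 different deletions among them.

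In other CmYLCVp plants a pair of patterns held most edited reads. In plant 6, -4:7D with 52.4% and -4:4D with 46.0% added up to 98.4%. In plant 43, -1:5D with 68.5% and 1:4D with 27.4% added up to 95.9%, and in plant 24, -1:5D with 50.2% and -2:7D with 35.6% to 85.8%. Plant 50 had 63.1% of the 42-bp deletion -34:42D and 26.7% of -2:9D. Like -5:9D, -34:42D removes a copy of a 6-bp repeat and the bases between the copies. The leading pair held over 90% of the edited reads in 8 of 54 CmYLCVp plants and 0 of 43 pUB10 plants. Those 8 are plants 6 and 43 and the 6 plants above whose leading pattern alone held over 90%.

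In CmYLCVp plant 43 the leading pattern reached 20.4% of all reads, the highest share of all reads that any pattern had in any of the 97 plants. It was followed by -16:24D in CmYLCVp plant 44, at 18.3%. The same measure ran up to 16.5% for -5:9D (CmYLCVp plant 15) and up to 16.0% with pUB10 (plant 1). The 18 CmYLCVp plants led by another pattern were edited at 0.328% to 29.8%, and none of the 15 CmYLCVp plants above 40% was among them. All 15 of those were led by -5:9D, at 17.7% to 22.0%.

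**Figure D3:**
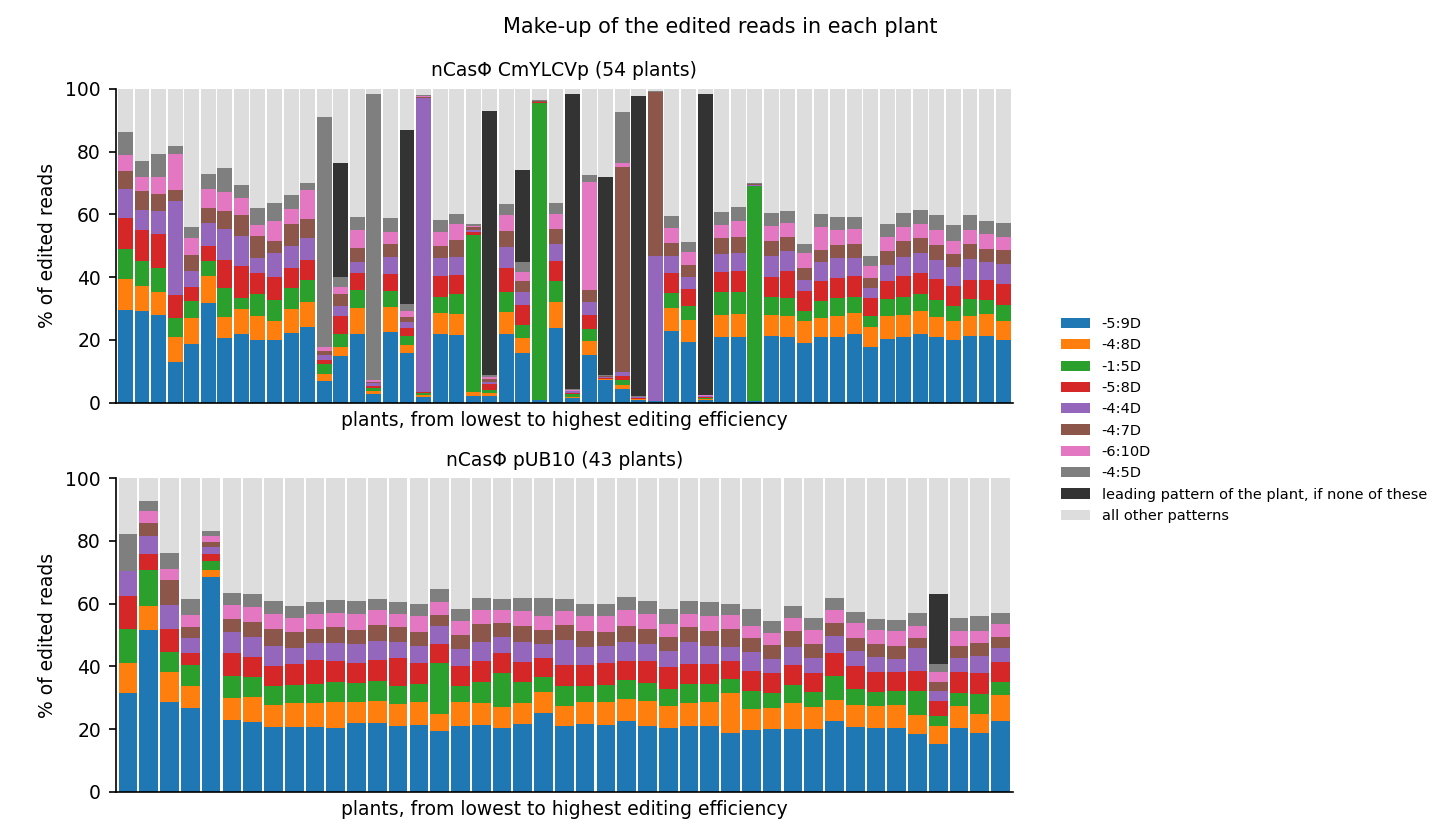
Make-up of the edited reads in each of the 54 CmYLCVp and 43 pUB10 plants, in order of editing efficiency. Colours are the 8 patterns with the highest mean share of reads over the 97 plants, black is the plant's leading pattern where it is none of these, and light grey is the sum of all other patterns. Most pUB10 plants have nearly the same bars, though -5:9D ranges from 15.3% to 68.5% over all 43. In 13 CmYLCVp plants -5:9D is under 10%.

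Apart from these plants the share of -5:9D varied less. Pattern -5:9D made up 17% to 32% of the edited reads in 36 CmYLCVp and 40 pUB10 plants, and under 10% in 13 and 0 plants. Those 36 are the same CmYLCVp plants that were led by -5:9D. Over all plants its share ran from 0.38% (CmYLCVp plant 6) to 31.9% with CmYLCVp (median 20.4%) and from 15.3% to 68.5% with pUB10 (median 21.1%). The pUB10 maximum was plant 28, where -5:9D held 68.5% of the edited reads at an efficiency of 11.4%, followed by plant 25 with 51.6% at 0.217%. As a share of all reads -5:9D never fell to the controls' level of 0.0186% to 0.0267% in the CmYLCVp plants led by another pattern, where it ran from 0.0423% (plant 48) to 1.54% (plant 45).

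After -5:9D the patterns with the highest mean share of all reads were -4:8D, -1:5D, -5:8D, -4:4D, -4:7D, -6:10D and -4:5D, all between 4 and 10 bp. In the CmYLCVp plants their median shares of the edited reads were 6.73%, 5.28%, 6.17%, 5.73%, 4.33%, 4.55% and 3.92%. In the pUB10 plants the same patterns had 7.05%, 5.81%, 6.54%, 5.57%, 4.53%, 4.42% and 3.98%. The order was nearly the same with both promoters, and no pair of medians differed by as much as 1 percentage point. The means lay further apart, at 8.41% with CmYLCVp and 6.24% with pUB10 for -1:5D, which led in 3 CmYLCVp plants.

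For the 242 patterns counted in at least 10 plants the share of edited reads was compared between promoters pattern by pattern. At an adjusted p under 0.05, 152 patterns or 62.8% differed (permutation test of the rank sum, Benjamini-Hochberg adjusted over 242). By rank all 152 were higher with pUB10 and 0 higher with CmYLCVp, and 170 differed at an unadjusted p under 0.05 in either direction. The mean share of some called patterns, such as -1:4D and -34:42D, was nevertheless the higher with CmYLCVp. Among the 8 leading patterns named above, -5:9D (adjusted p = 0.026), -4:8D (adjusted p = 0.0184) and -5:8D (adjusted p = 0.0136) were called, and the other 5 were not. The calls with the smallest p, 1e-05, the lowest that 100000 resamples allow, were rare patterns such as -9:22D, counted in 13 CmYLCVp and 33 pUB10 plants, and -8:14D, counted in 19 and 35. A pattern below 100 reads entered as 0, and such zeros were more frequent in the plants with fewer edited reads. The minimum of 10 plants was taken over both promoters together, so a pattern could enter mainly through the pUB10 plants. Pattern -19:30D, for example, was counted in 2 CmYLCVp and 10 pUB10 plants. The number and direction of the calls therefore cannot be told apart from how often a pattern was counted. Restricted to plants with at least 100000 edited reads, 15 of 240 patterns or 6.25% differed, again all higher by rank with pUB10, and 71 at an unadjusted p under 0.05. Of the leading patterns -4:8D (medians 6.51% and 7.03%, adjusted p = 0.0184) and -5:8D (medians 6.17% and 6.54%, adjusted p = 0.0268) were still among them and -5:9D was not (adjusted p = 0.0833).

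In-frame patterns made up a similar share with both promoters, at the median, and a very different one from plant to plant. The in-frame share of the edited reads ran from 0.547% through a median of 40.9% to 98.2% in the CmYLCVp plants and from 37.1% through 41.1% to 77.5% in the pUB10 plants. The difference of medians, -0.18 percentage points, did not pass (adjusted p = 0.366). The spread was 21.9 (SD, n = 54) with CmYLCVp and 6.59 (SD, n = 43) with pUB10. In 36 of 54 CmYLCVp and 40 of 43 pUB10 plants the share lay between 35% and 50%, as it did in the 3 controls (41.1% to 46.9%).

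Below 10% were 9 CmYLCVp plants and 0 pUB10 plants, and above 90% 3 CmYLCVp plants and 0 pUB10 plants. The 3 were plant 50 (98.2%, led by -34:42D) and plants 44 and 7 (97.7% and 96.5%, both led by -16:24D). Of these leading patterns -16:24D crosses the exon end, so that it counts as in-frame by its length only. At the other end plant 6 had 0.547%, plant 23 had 1.06%, plant 43 had 1.13% and plant 12 had 1.31%, all led by a deletion whose length is no multiple of 3. The highest pUB10 share, 77.5%, was that of plant 28, which -5:9D led. The in-frame share of these plants thus followed from their leading patterns.

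**Figure D4:**
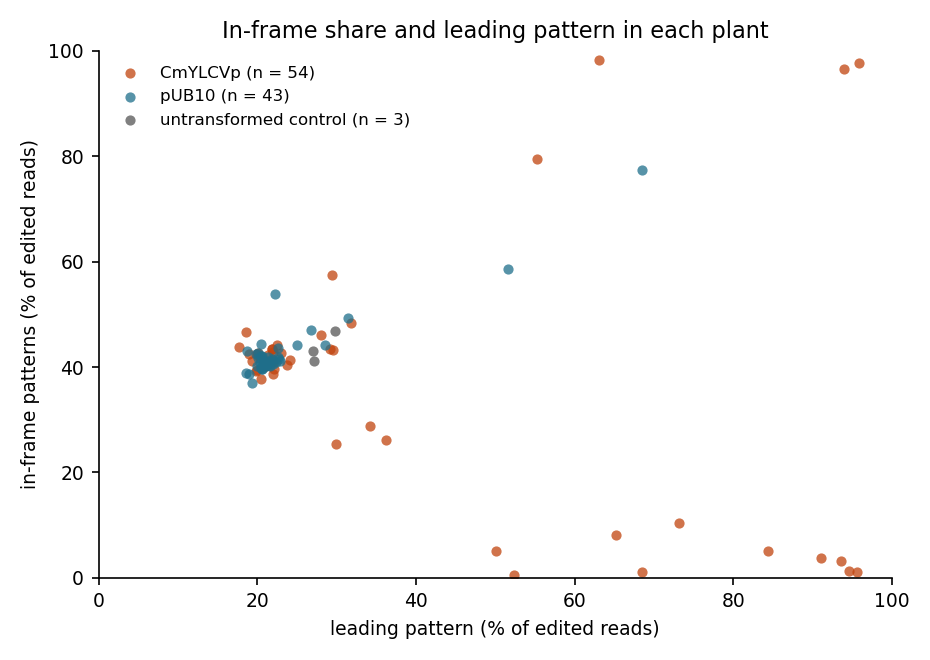
Share of the edited reads in in-frame patterns against the share of the leading pattern, 1 point per plant. The plants with a leading share near 20% lie close to 40% in frame, and the CmYLCVp plants with larger leading shares lie between 0.547% and 98.2%.

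Restricting in-frame patterns to those that stay inside the exon gave medians of 27.7% with CmYLCVp and 28.4% with pUB10 (adjusted p = 0.0503). The share of edited reads in patterns that cross the exon end, and with it the splice acceptor side, had medians of 36.5% and 36.9% (adjusted p = 0.265), and ranges of 0.608% to 98.2% and 14.9% to 57.9%. The extremes were again plants with a dominant pattern: CmYLCVp plants 23 (-7:17D, 98.2%) and 44 (-16:24D, 97.2%) at the top, and plant 6 (-4:7D with -4:4D) at the bottom. Whether a deletion creates another acceptor was not assessed.

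Deletions were short in both groups. The mean deletion size weighted by reads had medians of 9.43 bp with CmYLCVp and 9.66 bp with pUB10, ranges of 4.27 to 29.8 bp and 8.37 to 14.2 bp, and no difference that passed (adjusted p = 0.0604). Deletions of 9 bp were the most frequent class, with medians of 24.4% and 25.0% of the edited reads, followed by 8 bp (13.4% and 14.0%) and 5 bp (10.8% and 11.0%). Deletions of 8 to 10 bp together held medians of 45.6% and 46.9%, and those over 20 bp 4.26% and 4.96%. The largest mean size, 29.8 bp, was that of CmYLCVp plant 50, and the smallest, 4.27 bp, that of plant 31, which -4:4D led.

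At the median both groups lost the same stretch of bases. The base most often deleted lay 3 bp inside the exon from its plus-strand end, in a median of 97.7% of the edited reads with either promoter. The last base of the exon was removed in 86.7% and 86.2%, and the intron base next to it in 74.2% and 74.2%, in the rightmost placement that the labels use. At 9 bp inside the exon the medians were 11.6% and 12.4%, and 2 bp into the intron they were 26.3% and 27.4%. The removed bases thus covered the end of the target that lies away from the PAM and the first bases beyond it. Deletions that can be moved by at least 2 bp without changing the product, that is with repeats of at least 2 bp at their ends, made up medians of 43.9% and 43.7% of the reads with single deletions.

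**Figure D5:**
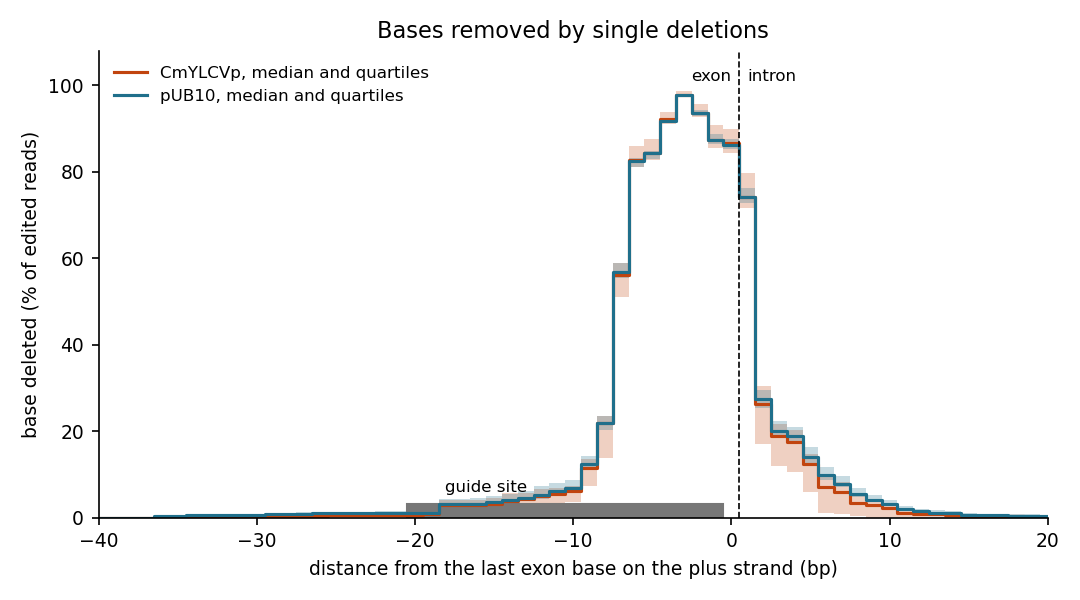
Percentage of edited reads in which a base is removed by a single deletion, by distance from the last exon base on the plus strand, with the intron on the right. Deletions are drawn in the rightmost placement that the labels use. Lines are medians over plants and bands the quartiles, and the grey bar is the gR10 target. Both medians peak at 97.7%, 3 bp inside the exon, and the CmYLCVp band is the wider.

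Beside these plants stand those with other constructs in the same background. With vCasΦ, another CasΦ-2 variant, and the same guide cassettes, the median efficiency was 4.33% with CmYLCVp (n = 46) and 17.9% with pUB10 (n = 36), a difference in the same direction (permutation test, p = 0.00157). On the log10 scale, after adding 0.01 percentage points, the mean difference between promoters was -0.49 with nCasΦ and -0.46 with vCasΦ. The difference between these was -0.03 (permutation of the enzyme labels, p = 0.879), so that no difference in the promoter effect between the enzymes was detected. Leading patterns of more than 50% of the edited reads were found in 10 of 46 vCasΦ CmYLCVp plants and 1 of 36 vCasΦ pUB10 plants.

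With nCasΦ and the guide without ribozymes under the U6 promoter, a promoter of RNA polymerase III, the median efficiency was 14.5% (range 0.0249% to 48.8%, n = 41). The pUB10 plants were higher (difference of medians 21.4 percentage points, probability 0.798, adjusted over 2 comparisons p = 2e-05). The CmYLCVp plants had the lower median by 5.50 percentage points but were the higher of a random pair with a probability of 0.551, and this comparison did not pass (adjusted p = 0.396). Their means lay the other way round, at 20.5% with CmYLCVp and 14.0% with U6. The U6 plants were led by -5:9D in 20 of 41 cases, and 2 of 41 had a leading share of more than 50%.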

How the data were processed

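Leaf DNA of single T1 plants was amplified across the AtPDS3 gR10 site by successive rounds of PCR and sequenced as amplicons. Per the study's methods, the authors used Trim Galore for trimming, aligned to the target with BWA-MEM 0.7.17 and exported each mutation pattern with its read count from CrispRVariants. The deposited values are these raw counts, with 1 file per plant. Molecular identifiers were not used, so that reads amplified from 1 molecule are counted more than once. The build of the amplicon reference is not given in the sources used here, and positions were set by finding the spacer in TAIR10.1 (1 exact match on the plus strand), where the reference bases implied by the substitution labels matched at 14 of 14 positions.

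Editing efficiency followed the methods' criterion (indels of at least 3 bp with at least 100 reads). Reads of patterns that the authors left unresolved stayed in the total. Efficiency, number, effective number and evenness of patterns, leading, in-frame and exon-end shares and mean deletion size were compared between promoters by permutation of the rank sum (two-sided, 100000 resamples, SciPy 1.17.1, NumPy 2.4.6, Python 3.11.15; figures with matplotlib 3.10.9), with Benjamini-Hochberg adjustment over 8 measures at 0.05. Single libraries have 95% Wilson intervals. Scripts were tested on simulated data.

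Patterns named are the 8 with the highest mean share of all reads, those leading in at least 3 plants of a promoter and those counted in a control. Plants named are the 3 most edited with each promoter and any whose leading pattern exceeds 20% of all reads. Other patterns and plants, in particular those with a dominant leading pattern, were named after their values were seen. The groups, measures and rules were chosen with earlier results of these data known. Alternatives were minimums of 10 reads and of 0.01% of reads, indels from 1 bp, scaling to the lowest depth, a depth minimum of 1000000 reads, subtraction of the controls, patterns over the 20-bp target only, means, minimums of edited reads, the treatment of unresolved reads and same-numbered plants as a block. Plant numbers of both promoters are only names. No library of these groups was left out.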

Additional observations from a re-analysis of the deposited data

Results flagged for a closer look

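Reads in patterns that the authors' export left unresolved were not counted as edited in any comparison above but stayed in the total of reads. They exceeded the level of the controls. The controls held 0.00687%, 0.00742% and 0.00901% of such reads. Among the CmYLCVp plants 50 of 54 lay above the highest control, with a median of 0.0917% and up to 20.2% in plant 10, and among the pUB10 plants 42 of 43, with a median of 0.972% and up to 11.3% in plant 6. CmYLCVp plant 10, where they were most frequent, had an efficiency of 52.5%, and counting such reads as edited moved the group medians to 9.12% and 36.7%. The share of such reads rose with efficiency in both groups (Spearman's rho = 0.77 over the CmYLCVp plants and 0.91 over the pUB10 plants). The content of these reads was not tested.

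Indels of 1 or 2 bp, which the criterion for edited reads leaves out, were at 0.0059%, 0.00777% and 0.00847% in the controls. They exceeded the highest control in 42 of 54 CmYLCVp plants, with up to 0.326% of reads in plant 15, and in 39 of 43 pUB10 plants, with up to 0.247% in plant 35. In both groups these shares were small beside the efficiency of the same plants, 82.3% and 45.6%. The share of 1 or 2 bp indels also rose with efficiency (Spearman's rho = 0.80 with CmYLCVp and 0.90 with pUB10).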

How the results depend on the processing

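The higher efficiency and larger number of patterns with pUB10 kept their direction and passed the test under every alternative tried for each, except the number of patterns among plants with at least 100000 edited reads (difference -32, adjusted p = 0.0568). In that subset, added after the data were seen, the effective number (-1.12) and the leading share (0.955 percentage points) did not pass, nor did the leading share at a minimum of 10 reads (0.722). Evenness, which never passed, changed sign at a minimum share of 0.01% (-0.00253), scaled to the lowest depth (-0.00254), with means (-0.0564) and at 100000 edited reads (-0.00562). The mean deletion size passed at a minimum share of 0.01% and scaled to the lowest depth (both -0.29 bp) and was reversed with means (0.111 bp). Patterns called numbered 97 at 0.01%, 98 scaled to the lowest depth, 15 at 100000 edited reads and 226 at a minimum of 10 reads, 1 of them higher by rank with CmYLCVp. The CmYLCVp against U6 difference was reversed with means (6.45). With the replicate block, 43 same-numbered plants of both promoters paired, evenness was reversed (-0.0431) and the in-frame share passed (-8.28, adjusted p = 0.0153). The block leaves out 11 CmYLCVp plants, and the same plants unpaired gave the same -8.28 (p = 0.00587). The numbers only name plants (correlation of same-numbered plants for efficiency 0.04). Efficiency under the block differed by -13.7 percentage points (adjusted p = 0.0111). The depth minimum of 1000000 reads left out no plant of either promoter, and neither did the minimum of 1000 edited reads. Efficiency was not compared under the minimums of edited reads.

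Few edited reads stood behind the composition of weakly edited plants, 1509 of 2402081 reads in pUB10 plant 33 and 2209 in CmYLCVp plant 41. Promoter, terminator and the insulator named for the pUB10 cassette cannot be told apart, and no batch label was found for these libraries.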
